A study of Bos taurus with 5 samples.

Results

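The mRNA examined here are the 60 named genes whose signal differed most between the 2 second-largest follicles (F2) of a bovine array study. They were chosen by a measured value. Of 10163 array probes that were neither controls nor glyceraldehyde-3-phosphate dehydrogenase (GAPDH) spots, 1415 carried a curated RefSeq transcript accession. In both F2, 824 of these 1415 were well above background and not saturated, after the probes for OXT and LOXL4 had been left out. Each signal was divided by the median of the 100 GAPDH spots of its array, and the 60 probes with the highest ratio of the larger to the smaller F2 value were taken. Because that ratio selected the genes, it is given below as a description, without a test.

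Total RNA came from the wall of individual follicles, which holds granulosa cells and theca interna once stroma and theca externa are dissected away, of pregnant Japanese Black cows that were untreated as far as the labels say. The arrays held 3 largest follicles (F1) and 2 F2, 1 follicle per array. The age of the cows and the size and health grade of each single arrayed follicle were not given in the sources used here. The methods describe 4 cows, of which 2 gave a follicle of each rank. At least 1 arrayed F2 therefore shared its cow with an arrayed F1. F2 replicate 2 lay at the other array position of its slide than the other 4 follicles, with a standard deviation of the local background of 5.51 against 2.06 to 3.44 signal units, so array position and the difference between the 2 F2 cannot be told apart. The GAPDH median was between 869 and 1411 signal units, and 5465 to 5855 probes per array were well above background. Of the cell markers, INHA, INHBA, FST and AMH of granulosa cells and CYP17A1 and INSL3 of theca cells were measured in both F2. CYP19A1, FSHR, INHBB and LHCGR were below that level in at least 1 F2. In a whole wall, fewer cells of a type and less RNA per cell cannot be told apart.

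Cattle follicles grow in waves. The follicle that becomes dominant keeps its granulosa cells dividing and synthesizing estradiol, whereas its smaller neighbours usually enter atresia, a regression in which granulosa cells undergo apoptosis, the basement membrane and matrix are remodelled by proteases, and macrophages take up dying cells. A second-largest follicle can therefore be at any stage between late growth and advanced regression. Genes that differ between follicles of that rank include immediate early genes, cytokines, protease receptors and steroidogenic enzymes, which respond at different times along that course.

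The ratio between the 2 F2 ran from 8.72 for FOS to 2.29 for the last gene, with a median of 2.84 against 1.30 for all 824 named probes. A ratio over 4 was found in 10 of the 60 and over 3 in 28, and 12.1% of the named probes differed by over 2-fold. Just inside the limit were LAPTM4A at 2.30, LOC338050 at 2.29 and SLC11A1 at 2.29, and just outside were the unnamed transcript NM_174718 at 2.28, USF2 at 2.28 and NDUFA12 at 2.26, so the limit separates genes that hardly differ in their ratio. The median of their higher F2 value was 0.269 of the GAPDH median, against 0.511 for all named probes. The lower F2 value, which is the denominator of the ratio and therefore low by choice, had medians of 0.0659 and 0.363.

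In F2 replicate 1, 10 of the 60 were higher, and in F2 replicate 2, 50 (83.3%). Of all 824 named probes, 223 were higher in F2 replicate 1 and 601 (72.9%) in F2 replicate 2. The marker list counts below are to be set against that share. The function groups are parts of the 60, so their counts are to be set against 83.3%. Both shares depend on the scale. Over all 824 named probes the median signal relative to GAPDH was 1.22-fold higher in F2 replicate 2, a log2 shift of -0.28. With the 75th percentile of each array in place of GAPDH the shift was 0.09, and a choice of 60 made on that scale held 33 genes higher in F2 replicate 1 and shared 37 genes with the 60 described here. With quantile normalization 37 genes were higher in F2 replicate 1. The 75th percentile scale moves every gene by the same 1.29-fold, which could not turn a ratio of 2.29 or more. With quantile normalization and normexp each of the 60 also kept its direction. Their lowest ratio at the 75th percentile was 1.77, and 41 of the 60 stayed over 2-fold, 10 of them higher in F2 replicate 1 and 31 in F2 replicate 2.

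**Figure D1:**
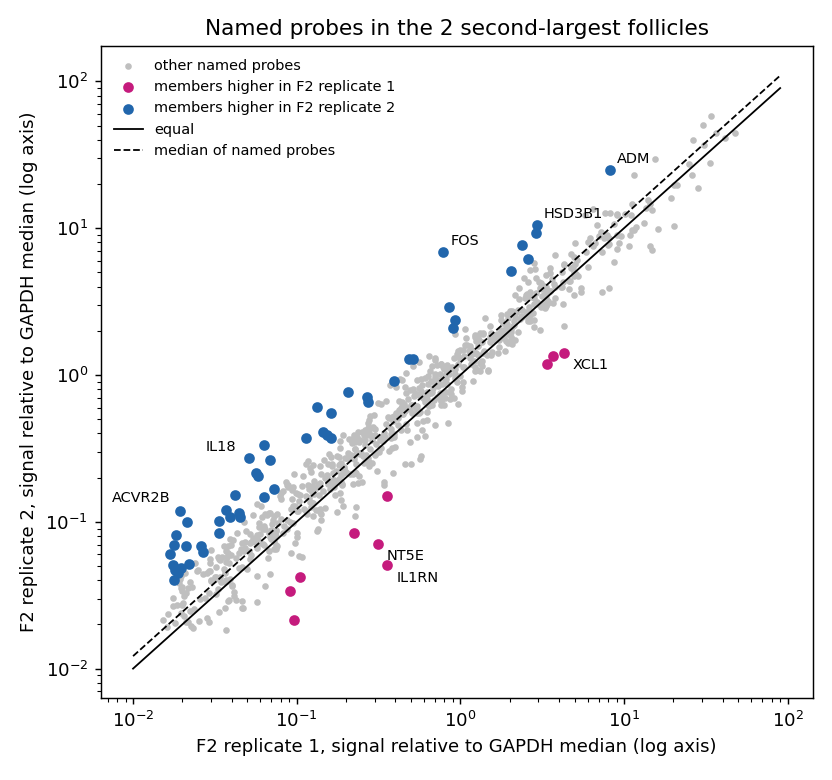
Signal relative to the GAPDH median in F2 replicate 1 (x axis) and F2 replicate 2 (y axis) of the 824 named probes, both axes logarithmic, with the 10 genes higher in F2 replicate 1 and the 50 higher in F2 replicate 2 in colour. The dashed line marks the median of the named probes, which lies 1.22-fold above equality, and most of the 60 lie in the lower range of signal.

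The probes of 3 genes are printed to show what was hybridized. They stand for a cytokine, an epithelial adhesion protein and a transcription factor. Each is the 60-base sequence on the array, 5′ to 3′, in lower case because no stretch of it is singled out.
IL18: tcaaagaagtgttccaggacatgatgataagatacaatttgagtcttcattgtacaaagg
CDH1: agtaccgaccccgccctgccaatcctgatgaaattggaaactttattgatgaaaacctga
CEBPD: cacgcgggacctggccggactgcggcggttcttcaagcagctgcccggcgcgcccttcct
No probe of the 60 shared a run of 25 bases with another probe of the array, and the median GC content of the probes was 45% for the 60 and 45% for all named probes.

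Values below are signals relative to the GAPDH median of the array, given in the order of the replicate numbers, and "not detected" means not well above background. The genes higher in F2 replicate 1 are described first. IL1RN, the secreted antagonist of the interleukin 1 receptor, was 0.357 in F2 replicate 1 and 0.0505 in F2 replicate 2, a ratio of 7.07, and was not detected in any F1. On the 75th percentile scale its ratio rose to 9.13, above that of FOS at 6.75. PCSK1, a convertase that cleaves prohormones, was 0.0961 and 0.0214 in the F2 and not detected in any F1. NT5E, the surface enzyme that converts AMP to adenosine, was 0.313 and 0.0709 in the F2 and not detected in any F1. All 3 were thus found in both F2 and in no F1, at levels 4.41- to 7.07-fold apart between the F2.

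XCL1, a chemokine of T cells and natural killer cells, was 4.29 and 1.41 in the F2. It was detected in 1 of 3 F1, F1 replicate 3, at 0.0171. PLAUR, the cell surface receptor of urokinase plasminogen activator, was 3.38 and 1.18 in the F2 against 0.0170, 0.0344 and 0.0217 in the F1, 2 of which were detected. SPP1, the phosphoprotein osteopontin that activated macrophages secrete, was 3.70 and 1.34 in the F2 and not detected in any F1. These 3 had the highest F2 levels of the genes higher in F2 replicate 1, all above the GAPDH median in both F2 and all near or below background in the F1.

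ANXA8L1, a calcium-dependent phospholipid-binding annexin, was 0.0910 and 0.0338 in the F2 and not detected in any F1. CA2, the cytosolic carbonic anhydrase, was 0.223 and 0.0836 in the F2 and 0.0284 in the 1 F1 that was detected. LOC407171, which the study lists as an Fc gamma 2 receptor, was 0.355 and 0.151 in the F2, with 0.0622 and 0.0365 in the 2 F1 that were detected. For these as for the previous genes, the lower F2 still lay above the highest F1. GZMB, the serine protease of cytotoxic lymphocyte granules, was the exception, with 0.105 and 0.0424 in the F2 and 0.0272, 0.0340 and 0.0789 in the F1.

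Both F2 lay above every F1 in 9 of these 10 genes, against 39% of all named probes that were higher in F2 replicate 1. Both F2 lay below every F1 in 0 of the 10 (31.8% of those named probes), and the F1 lay between the 2 F2 in 0 (1.35%). Of the 10, only GZMB was detected in every F1. The other 9 passed the filter through their F2 values, which all but fixes both F2 above every F1, so nothing is read from these counts. In all 10, F2 replicate 2 was the F2 nearer to the F1 mean. For the 9 with both F2 above every F1 this follows from the choice, because F2 replicate 2 was the lower F2. The counts were the same with the 75th percentile and quantile scales, and with normexp background correction 8 of the 10 lay above every F1. Of the 10, 5 belonged to the immune genes and 2 to the genes of matrix and proteolysis.

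**Figure D2:**
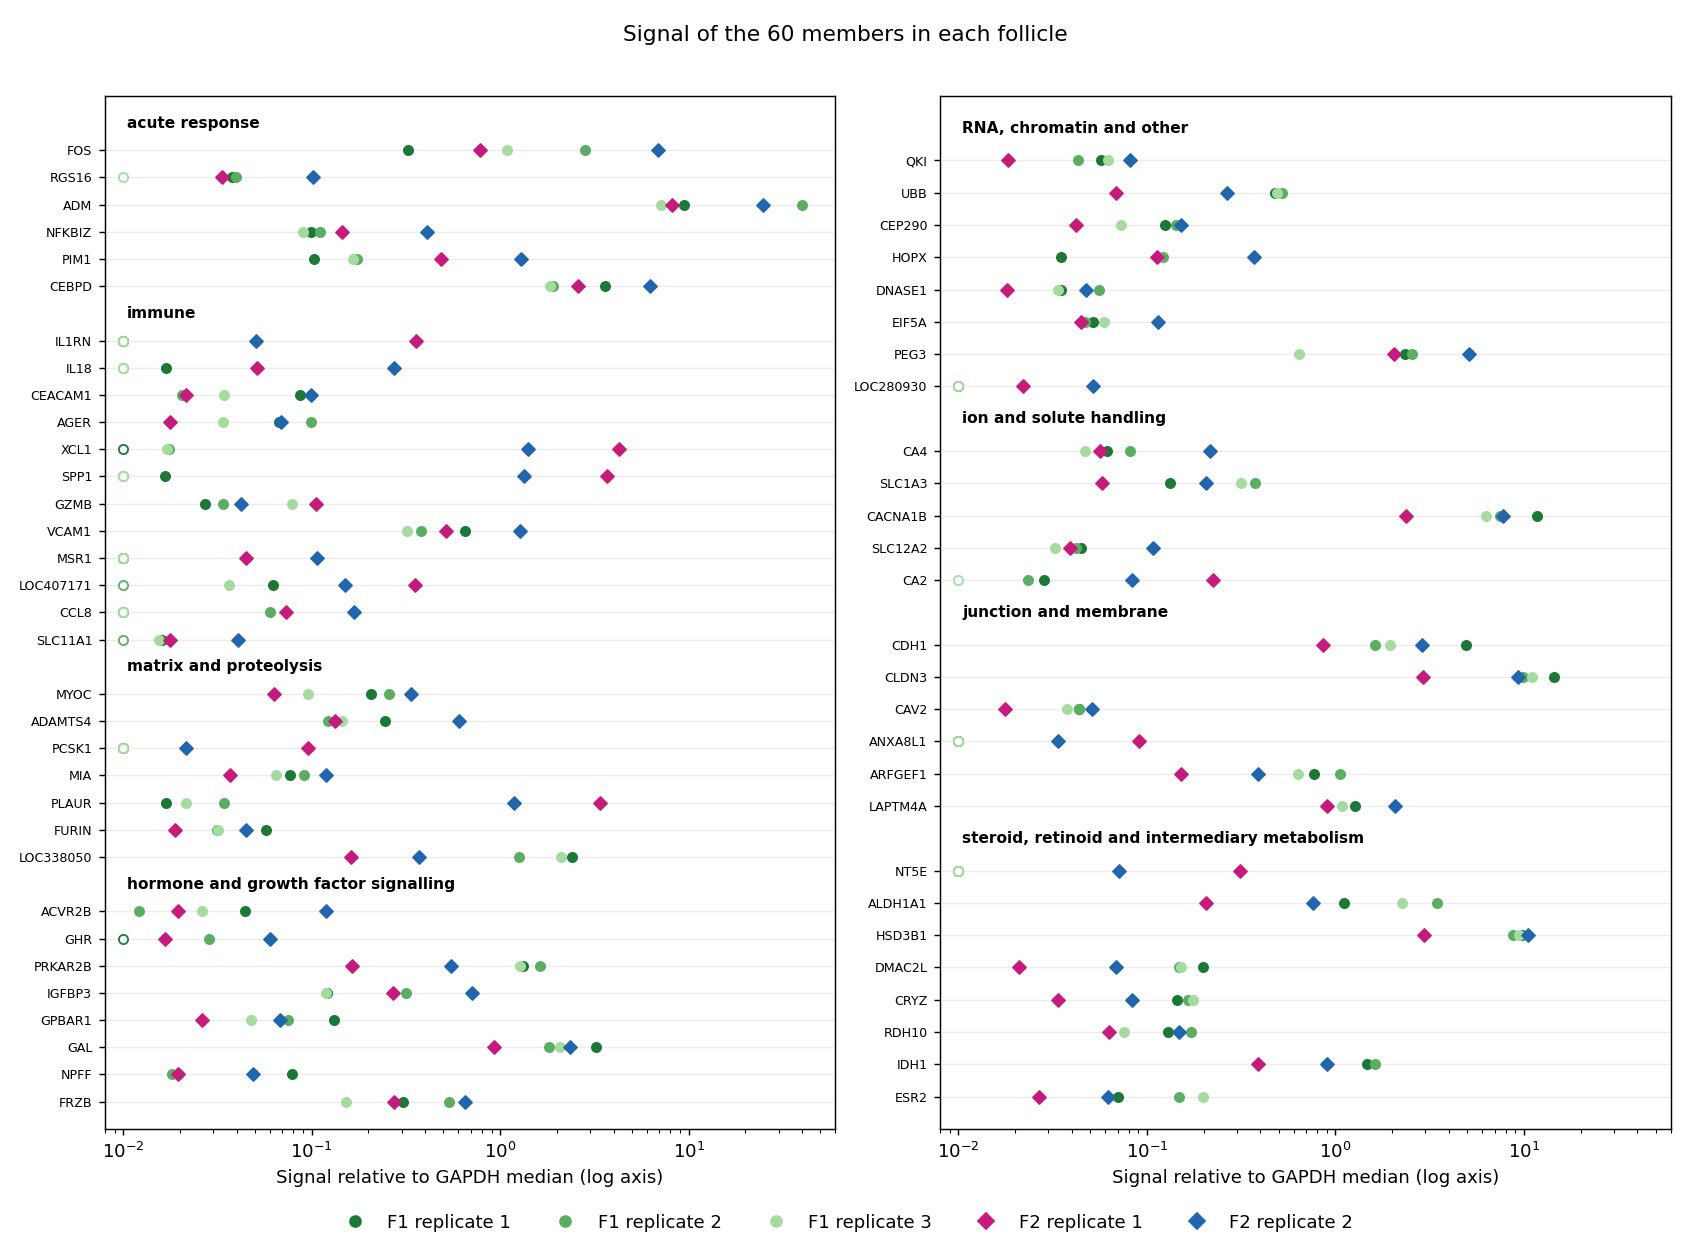
Signal relative to the GAPDH median (log axis) of the 60 genes in the 3 F1 (circles) and the 2 F2 (diamonds), grouped by function. Open circles are values under 0.01, drawn at 0.01. IL1RN, SPP1, XCL1 and PLAUR stand far to the right of their F1 in both F2, whereas for FOS, ADM and CDH1 the F2 lie among or beside the F1.

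Of the acute response genes, which are transcribed within minutes to hours of a stimulus, 6 were among the 60, and all 6 were higher in F2 replicate 2. FOS, a component of the AP-1 transcription factor, was 0.785 in F2 replicate 1 and 6.85 in F2 replicate 2, against 0.325, 2.83 and 1.09 in the F1. The F1 were themselves 8.70-fold apart for FOS, and F2 replicate 1 lay within their range. ADM, which encodes the vasodilator peptide adrenomedullin, was 8.21 and 24.8 in the F2 and 9.44, 40.0 and 7.17 in the F1, so both F2 lay inside the F1 range. In both genes F1 replicate 2 was the highest F1.

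CEBPD, a transcription factor of the acute phase response, was 2.59 and 6.20 in the F2 and 3.61, 1.90 and 1.85 in the F1. NFKBIZ, an inducible regulator of NF-kappa-B targets, was 0.145 and 0.407 in the F2 and 0.0990, 0.111 and 0.0894 in the F1. PIM1, a cytokine-induced survival kinase, was 0.486 and 1.29 in the F2 and 0.103, 0.174 and 0.165 in the F1. PIM1 and NFKBIZ thus exceeded every F1 in both F2, whereas CEBPD exceeded the F1 in F2 replicate 2 only. RGS16, which speeds the shutdown of G protein signals, was 0.0333 and 0.102 in the F2 and 0.0377 and 0.0398 in the 2 F1 that were detected. The list of immediate early genes had 2 measured members, and the other, ZFP36, which destabilizes cytokine mRNA, was 0.404 and 0.825 in the F2.

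The immune genes were the largest group, with 12 genes, of which 5 were higher in F2 replicate 1 (IL1RN, XCL1, SPP1, GZMB and LOC407171) and 7 in F2 replicate 2. IL18, a cytokine that acts on natural killer and T cells, was 0.0511 and 0.272 in the F2 and not detected in any F1. MSR1, the macrophage scavenger receptor, was 0.0451 and 0.107 in the F2 and not detected in any F1. CCL8, a chemokine for monocytes, was 0.0728 and 0.168 in the F2, and its only detected F1 was at 0.0601. So the immune genes that were low or absent in the F1 fell on both sides: the antagonist IL1RN was higher in one F2 and the cytokine IL18 in the other.

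CEACAM1, a homophilic adhesion protein, was 0.0214 and 0.0992 in the F2 and 0.0866, 0.0205 and 0.0341 in the F1, with 2 F1 detected. AGER, the receptor for advanced glycation end products, was 0.0178 and 0.0690 in the F2 and 0.0671, 0.0989 and 0.0338 in the F1. VCAM1, an adhesion molecule of activated endothelium, was 0.515 and 1.28 in the F2 and 0.654, 0.381 and 0.321 in the F1. In AGER it was F2 replicate 1 that lay outside the F1, below them, and in VCAM1 it was F2 replicate 2, above them. SLC11A1, a metal transporter of macrophage phagosomes, was 0.0177 and 0.0405 in the F2 and 0.0161, 0.00443 and 0.0155 in the F1, of which 1 was detected, close to the lowest signal that could be detected.

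Of the myeloid list, 10 genes were measured in both F2, 3 higher in F2 replicate 1 and 7 in F2 replicate 2, with a median log2 difference of -0.14 (F2 replicate 1 minus F2 replicate 2), above the median of -0.28 of all named probes. Their summed value was 2.57 in F2 replicate 1 and 2.76 in F2 replicate 2. Of the lymphocyte list, 6 genes were measured, 4 higher in F2 replicate 1, with a median of 0.44 and a summed value of 1.62 against 1.34. CD3E, a chain of the T cell receptor complex, was 0.0337 and 0.0242 in the F2, near the detection limit. None of the 4 red cell probes was measured in both F2, and HBB was below 0 after background subtraction in the F1. The part of infiltrating cells in the differences between the F2 was not tested.

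The 7 matrix and proteolysis genes held 2 higher in F2 replicate 1, PLAUR and PCSK1, and 5 higher in F2 replicate 2. MYOC, the secreted glycoprotein myocilin, was 0.0634 and 0.336 in the F2 and 0.206, 0.256 and 0.0951 in the F1, which all lay between the F2. ADAMTS4, a protease that cleaves aggrecan and versican, was 0.133 and 0.605 in the F2 and 0.246, 0.122 and 0.145 in the F1. LOC338050, whose RefSeq synonym is PCI, was 0.162 and 0.371 in the F2 and 2.41, 1.25 and 2.10 in the F1. MYOC thus differed in opposite directions from the F1 in the 2 F2, ADAMTS4 exceeded them in 1, and LOC338050 lay below them in both. MIA had ratio 3.23 and FURIN, a convertase of the secretory pathway, 2.36.

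Other proteins of plasminogen activation leaned the same way as PLAUR. PLAT, tissue plasminogen activator, was 14.8 and 7.09 in the F2, and PLAU, its urokinase counterpart, was 0.845 and 0.470. The metalloproteinase inhibitor TIMP1 was 14.3 and 7.52. Their ratios of 1.80 to 2.09 missed the limit for the 60 on the GAPDH scale, and all 3 entered it on the 75th percentile scale. SERPINE2 was the reverse, with 6.42 and 13.6.

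Of the 19 measured genes of the follicle regression list, which includes those proteins, 11 were higher in F2 replicate 1 and 8 in F2 replicate 2, with a median log2 difference of 0.06 (F2 replicate 1 minus F2 replicate 2) against -0.28 for all named probes. Only PLAUR and IGFBP3 of that list were among the 60, and they differed in opposite directions. Clusterin (CLU), which rises in regressing tissue, was 26.6 and 40.0 in the F2, the death receptor FAS was 0.126 and 0.246, and thrombospondin 1 (THBS1), an inhibitor of vessel growth, was 2.59 and 4.31. The proapoptotic BAX was 0.220 and 0.211. On the GAPDH scale the regression list was thus split between the 2 F2. Against the named probes, of which 223 of 824 were higher in F2 replicate 1, the list leaned to F2 replicate 1. Its protease genes were split as well. PLAT, PLAU and MMP2 were higher in F2 replicate 1. CTSB (0.364 and 0.446) and MMP14 (0.0267 and 0.0438) were higher in F2 replicate 2, as were CLU, FAS and THBS1.

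In the follicle growth and survival list, 5 of 6 measured genes were higher in F2 replicate 2, with a median of -0.61. TRIB2, a pseudokinase of growing follicles, was 0.645 and 1.35, and PGF, placental growth factor, was 0.0601 and 0.129. Both stayed far below the F1, where TRIB2 was 61.5, 67.8 and 42.4. The 5 measured granulosa genes had a median of -0.52 and were not in one direction, since INHA was 2.17 and 1.73 in the F2 and AMH was 0.225 and 0.388. Of the cell division genes, CCNB2 was 0.339 and 0.178, CDK1 was 0.0923 and 0.122, and BIRC5 was 0.0970 and 0.0715. These lists were described only, since no gene of them was among the 60.

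The 8 genes of steroid, retinoid and intermediary metabolism included NT5E, already given, and 7 that were higher in F2 replicate 2. HSD3B1, the enzyme that converts pregnenolone to progesterone, was 2.94 and 10.5 in the F2 and 9.84, 8.77 and 9.41 in the F1. F2 replicate 2 was thus just above the F1, which were 1.12-fold apart, and F2 replicate 1 lay well under them. STAR, which delivers cholesterol to the mitochondria, was 16.1 and 9.91 in the F2, and CYP11A1, which makes pregnenolone, was 8.64 and 5.86, both higher in F2 replicate 1. Neighbouring steps of progesterone synthesis thus differed in opposite directions between the 2 F2.

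ALDH1A1, which makes retinoic acid, was 0.207 and 0.763 in the F2 and 1.11, 3.46 and 2.25 in the F1. RDH10, the retinol dehydrogenase of the preceding step, was 0.0630 and 0.148 in the F2 and 0.129, 0.170 and 0.0754 in the F1. ESR2, the estrogen receptor beta of granulosa cells, was 0.0269 and 0.0618 in the F2 and 0.0703, 0.147 and 0.198 in the F1. ALDH1A1 and ESR2 lay below every F1 in both F2, more so in F2 replicate 1. DMAC2L, a mitochondrial protein linked to ATP synthase, was 0.0210 and 0.0681 in the F2 and 0.199, 0.147 and 0.151 in the F1. CRYZ, a quinone reductase, and IDH1, cytosolic isocitrate dehydrogenase, had ratios of 2.48 and 2.32.

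All 8 genes of hormone and growth factor signalling were higher in F2 replicate 2. ACVR2B, a type II receptor of activin, was 0.0195 and 0.119 in the F2 and 0.0441, 0.0121 and 0.0260 in the F1, 2 of which were detected. PRKAR2B, a regulatory subunit of the protein kinase A that carries gonadotropin signals, was 0.163 and 0.551 in the F2 and 1.32, 1.62 and 1.28 in the F1. IGFBP3, which binds insulin-like growth factors, was 0.270 and 0.707 in the F2 and 0.120, 0.316 and 0.120 in the F1. Their positions differed: ACVR2B and IGFBP3 exceeded the F1 in F2 replicate 2 only, and PRKAR2B was below the F1 in both F2. The growth hormone receptor GHR had a ratio of 3.60, the bile acid receptor GPBAR1 of 2.61, the neuropeptide genes GAL and NPFF of 2.53 and 2.50, and the Wnt antagonist FRZB of 2.40.

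Genes of cell junctions and membranes numbered 6, of which ANXA8L1 was higher in F2 replicate 1. CDH1, E-cadherin of epithelial adherens junctions, was 0.857 and 2.89 in the F2 and 4.95, 1.61 and 1.94 in the F1. CLDN3, a tight junction claudin, was 2.92 and 9.28 in the F2 and 14.4, 9.85 and 11.1 in the F1. In both junction genes F2 replicate 1 lay under every F1. F2 replicate 2 lay inside the F1 range for CDH1 and just under it for CLDN3. ARFGEF1, an exchange factor of Golgi vesicle transport, was 0.152 and 0.391 in the F2 and 0.768, 1.06 and 0.633 in the F1. LAPTM4A, a membrane protein of lysosomes, was 0.905 and 2.08 in the F2 and 1.27, 0.902 and 1.09 in the F1. CAV2, a caveolin, had a ratio of 2.90 at a lower value of 0.0176.

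Of 5 genes of ion and solute handling, CA2 was higher in F2 replicate 1 and the other 4 in F2 replicate 2. CA4, a carbonic anhydrase anchored at the cell surface, was 0.0567 and 0.216 in the F2 and 0.0614, 0.0813 and 0.0470 in the F1, so the 2 carbonic anhydrases differed in opposite directions. The calcium channel gene CACNA1B was 2.38 and 7.72 in the F2 and 11.8, 7.50 and 6.29 in the F1. The glutamate transporter SLC1A3 had a ratio of 3.56 and the sodium, potassium and chloride cotransporter SLC12A2 of 2.73.

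The last group, of RNA, chromatin and other functions, had 8 genes, all higher in F2 replicate 2. QKI, an RNA-binding protein of splicing, was 0.0182 and 0.0814 in the F2 and 0.0573, 0.0431 and 0.0625 in the F1. UBB, a polyubiquitin gene, was 0.0685 and 0.265 in the F2 and 0.477, 0.522 and 0.493 in the F1, which were 1.10-fold apart. LOC280930, whose RefSeq synonyms include SRN, was 0.0221 and 0.0515 in the F2 and not detected in any F1. PEG3, an imprinted zinc finger gene, was 2.04 and 5.10 in the F2 and 2.34, 2.54 and 0.642 in the F1. CEP290 of the primary cilium had a ratio of 3.63, HOPX of 3.27, DNASE1 of 2.62 and EIF5A of 2.57.

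Among the 50 genes higher in F2 replicate 2, the F2 took every position relative to the F1. Both F2 lay above every F1 in 7 (IL18, NFKBIZ, PIM1, MSR1, LOC280930, CCL8 and SLC11A1), against 19.5% of the named probes that were higher in F2 replicate 2. Both lay below every F1 in 9, against 31.3%. These were UBB, ALDH1A1, PRKAR2B, DMAC2L, CLDN3, ARFGEF1, CRYZ, ESR2 and LOC338050. The F1 lay between the 2 F2 in 7, against 4.33%, and these were MYOC, QKI, CEP290, HSD3B1, MIA, CAV2 and EIF5A. A gene chosen for a wide gap between the F2 is more likely to have the F1 inside that gap, so nothing is read from that count. IL18, MSR1 and LOC280930 were detected in no F1 and passed the filter through their F2 values, which all but fixes their position above the F1.

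In 15 of the 50, F2 replicate 2 alone lay outside the F1, above them, against 12% of the named probes higher in F2 replicate 2, and FOS, ACVR2B, ADAMTS4, CA4, IGFBP3, VCAM1 and CEBPD belonged to these. In 10, F2 replicate 1 alone lay outside, below every F1, against 18.5%, among them AGER, SLC1A3, CDH1, CACNA1B, GAL, RDH10 and IDH1. Both F2 lay inside the F1 range in 2, ADM and NPFF, against 14.5%. A wide gap between the F2, for which the genes were chosen, makes it less likely that both F2 fall inside the F1 range. Nothing is therefore read from these counts either. On the 75th percentile scale both F2 lay above every F1 in 15 of the 50 and below in 9, and with normexp in 2 and 8, so the count above depended on the scale and the background correction. F2 replicate 2 was nearer to the F1 mean in 35 of the 60 genes (58.3%), and in 56.9% of all named probes.

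**Figure D3:**
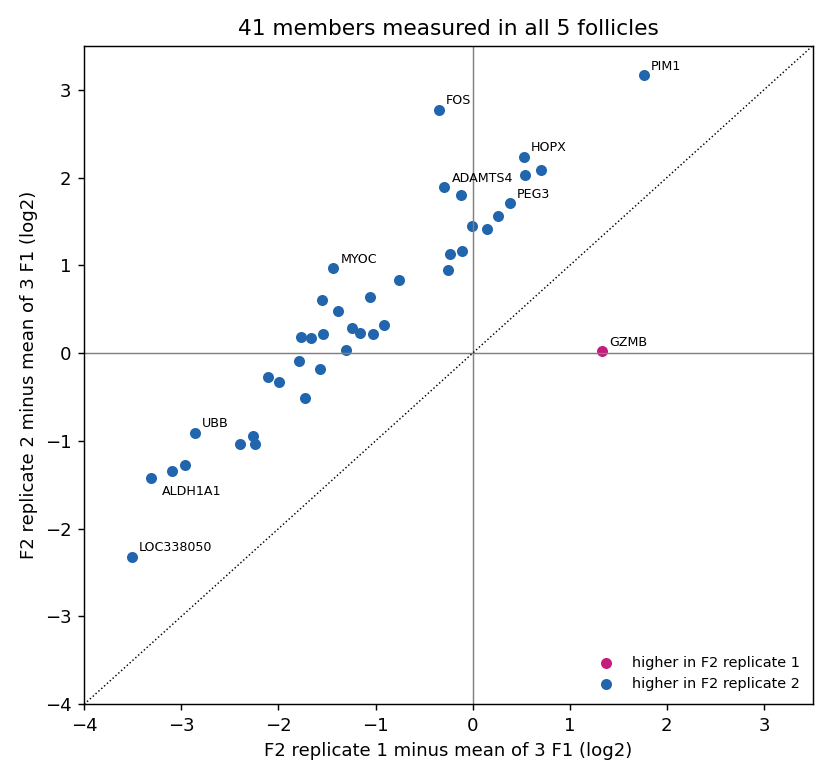
The log2 signal of F2 replicate 1 (x axis) and F2 replicate 2 (y axis), each minus the mean log2 signal of the 3 F1, of the 41 genes that were well above background in all 5 follicles. Points run from the lower left, where both F2 are below the F1 (LOC338050, ALDH1A1, UBB), to the upper right, where both are above (PIM1), and the dotted line marks equal F2 values. Genes not detected in an F1 are not drawn, which leaves GZMB as the only drawn gene higher in F2 replicate 1.

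F1 and F2 were compared with limma over 5528 probes, in which the 60 take part with the same F2 values that chose them, so that their wide F2 spread enters the error of the test. All 60 passed the filter of that fit through their F2 values, so for genes absent from the F1 the p-values below are no independent evidence. An adjusted p under 0.05 was reached by 12 of the 60, of which 9 were higher in F2 and 3 in F1. Among the 41 detected on all 5 arrays, a fit over such probes alone called 8, 7 higher in F1 and 1 in F2. Of all 4861 probes in that fit, 396 were called higher in F1 and 270 in F2. The majority higher in F2 among the 12 thus came from genes that entered the fit through their F2 values. With the deposited ratios, 7 of 58 tested were called higher in F1 and 4 in F2, against 369 and 262 of all 5435 probes tested. In the fit over 5528 probes, 5.08% of all probes were called higher in F2 and 6.39% higher in F1. Of the 10 genes higher in F2 replicate 1, 6 were called higher in F2, and of the 50 higher in F2 replicate 2, 3 were called higher in F2 and 3 higher in F1. For genes not detected in every F1, the difference is given as a bound, with each weak F1 spot raised to the lowest signal detected on its array. Such a bound holds for the processed signals and not for other background corrections. The bounds themselves were not tested. A p-value given beside a bound comes from the fit over 5528 probes, in which only values below a lower floor were raised.

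On the processed signals, osteopontin SPP1 was at least 133-fold higher in F2 (limma adjusted p = 0.00514), and XCL1 at least 132-fold (adjusted p = 0.0115). For PLAUR the bound was 83.8-fold (limma adjusted p = 0.00112). NT5E was at least 8.91-fold higher in F2 (limma adjusted p = 0.00112), IL1RN at least 8.04-fold (adjusted p = 0.0125) and PCSK1 at least 2.72-fold (adjusted p = 0.00357). MSR1 was at least 4.16-fold higher in F2 (limma adjusted p = 0.000398) and LOC280930 at least 2.02-fold (adjusted p = 0.0375). The limma log2 differences of F1 minus F2 behind these p-values were -6.12 for MSR1 and -4.15 for LOC280930, wider than the bounds. PIM1, detected in all 5 follicles, was 5.52-fold higher in F2, a log2 difference of F1 minus F2 of -2.46 ± 0.49 (SE) with a limma adjusted p of 0.0260. In all 9 the lower F2 exceeded the highest F1. With no filter on weak probes, PLAUR (0.0476) and MSR1 (0.0273) alone of the 9 stayed under 0.05, and limma adjusted p was 0.100 for SPP1, 0.139 for XCL1 and 0.141 for IL1RN. With normexp the log2 difference of F1 minus F2 shrank to -0.83 for PCSK1, -0.82 for MSR1 and -0.38 for LOC280930, with limma adjusted p of 0.101, 0.106 and 0.560. It was -4.47 for SPP1, -4.69 for XCL1, -4.32 for PLAUR, -1.99 for NT5E and -1.48 for IL1RN, which kept their calls. For all of these genes the normexp difference was smaller than the bound given above.

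Higher in F1 were LOC338050, 7.54-fold with a log2 difference of 2.92 ± 0.47 (SE, limma adjusted p = 0.0140), PRKAR2B, 4.66-fold with 2.22 ± 0.52 (limma adjusted p = 0.0450), and DMAC2L, 4.34-fold with 2.12 ± 0.52 (limma adjusted p = 0.0491). IL18 and ANXA8L1 both had a limma adjusted p of 0.05001, just over the threshold, with bounds of 7.06- and 3.32-fold higher in F2. Other genes with non-overlapping groups also missed it, among them ALDH1A1 with a log2 difference of 2.37 ± 0.69 (limma adjusted p = 0.0776) and UBB with 1.88 ± 0.56 (limma adjusted p = 0.0825). FOS had a log2 difference of -1.21 ± 1.16 (limma adjusted p = 0.519) and ADM of -0.03 ± 0.83 (limma adjusted p = 0.980). Before adjustment, 23 of the 60 had p under 0.05.

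The calls rested on both F2. Without F2 replicate 1, 4 of the 12 genes kept an adjusted p under 0.05, PCSK1 (0.00899), NT5E (0.00895), PLAUR (0.0350) and MSR1 (0.00895), and the other 8 had limma adjusted p values between 0.0849 for PIM1 and 0.260 for LOC280930, with 0.177 for IL1RN, 0.168 for SPP1 and 0.226 for XCL1. Without F2 replicate 2, 6 kept it, the same 4 genes together with PRKAR2B (0.0271) and DMAC2L (0.0361), whereas IL1RN reached 0.0518, SPP1 0.0767, XCL1 0.104, PIM1 0.136, LOC280930 0.221 and LOC338050 0.0545 in limma. Leaving out any 1 F1 ended the calls of PRKAR2B and DMAC2L, with limma adjusted p up to 0.109 and 0.135. PIM1 lost its call without F1 replicate 1 (0.0755) or 3 (0.0640), and LOC280930 without F1 replicate 1 (0.0973) or 2 (0.0588). For PCSK1, NT5E and MSR1 every F1 was at the floor of 0.001, so that the F1 had no spread by construction and the retained calls of these 3 say nothing of stability. With either F2 left out, the single remaining F2 was taken to vary like the F1.

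The spread over the 3 F1 was not used to choose the genes. Among the 41 genes detected in all 3 F1, the ratio of the highest to the lowest F1 had a median of 1.87, against 1.51 for the 747 named probes detected there. It was over 2 in 17 of the 41 (41.5%), against 19.5% of the 747. Of these 41 genes, 14 were also among the 60 with the widest F1 range of the 747. Genes not detected in every F1 were left out of that order. After FOS (8.70) and ADM (5.58), these were led by PEG3 (3.96), FRZB (3.52), HOPX (3.46), ALDH1A1 (3.12) and CDH1 (3.06). HSD3B1, UBB, CAV2 and CRYZ were at the other end, with F1 ranges of 1.12, 1.10, 1.16 and 1.22. The signal of the 60 was weaker than that of all named probes, as given above, and its part in the wider F1 range was not tested.

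**Figure D4:**
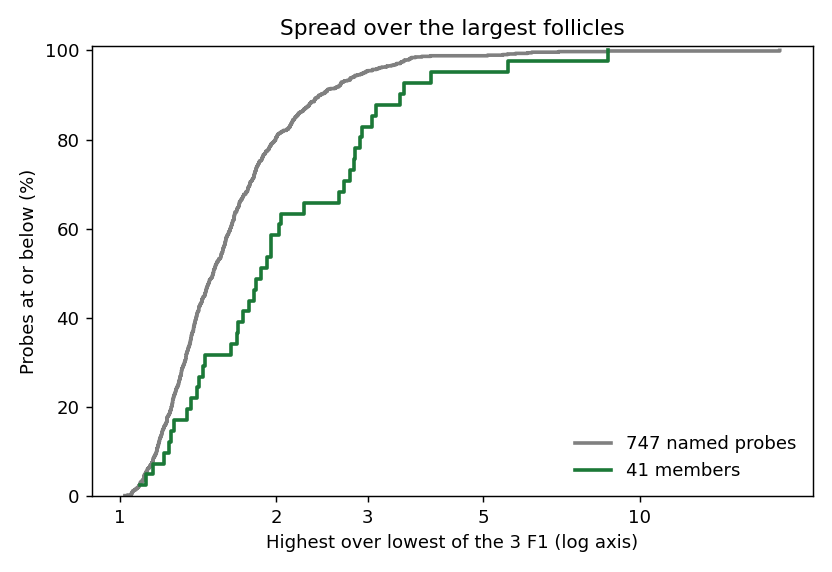
Cumulative percentage of probes (y axis) by the ratio of the highest to the lowest of the 3 F1 (x axis, logarithmic), for the 41 genes and the 747 named probes detected in all 3 F1. The curve of the 41 genes lies to the right, with medians of 1.87 and 1.51.

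The scanner software gives an error for each processed signal. The log ratio between the 2 F2 was over 2 times its error in 52 of the 60 genes and over 3 times in 41. It was under 2 times in 8, which were CAV2, DNASE1, GPBAR1, NPFF, FURIN, LOC280930, ESR2 and SLC11A1, and these ratios are not separated from measurement error. In 15 genes the lower F2 signal was under 2 times the lowest signal detected on its array. That error describes a spot and not the variation between follicles, of which there were 2.

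The measured endothelial markers were all higher in F2 replicate 2, 6 of 6, with a median log2 difference of -0.64 (F2 replicate 1 minus F2 replicate 2) against -0.28 for the named probes. They were VCAM1, TEK (0.0825 and 0.162), TIE1, PECAM1, SELP (0.636 and 0.864) and ICAM1, and their summed value was 1.35 in F2 replicate 1 and 2.45 in F2 replicate 2. VCAM1 made up most of that difference. The count of 6 holds for the GAPDH scale. ICAM1 was 1.19-fold higher in F2 replicate 2, less than the 1.29-fold by which the 75th percentile scale moves every gene towards F2 replicate 1. TIE1 (0.0230 and 0.0357) and PECAM1 (0.0211 and 0.0330) were near the detection limit. The matrix and stroma list was higher in F2 replicate 2 in 7 of 8 measured genes, with a median of -0.42. Its summed value was 48.5 against 78.2, and MGP, at 30.4 and 50.3, made up most of that difference. Decorin (DCN) was 5.77 and 12.2. Of the stress and acute phase list, 4 of 5 genes were higher in F2 replicate 2, with a median of -0.26, close to that of all named probes. The part of vessel and stromal content in the 50 genes higher in F2 replicate 2 was not tested.

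**Figure D5:**
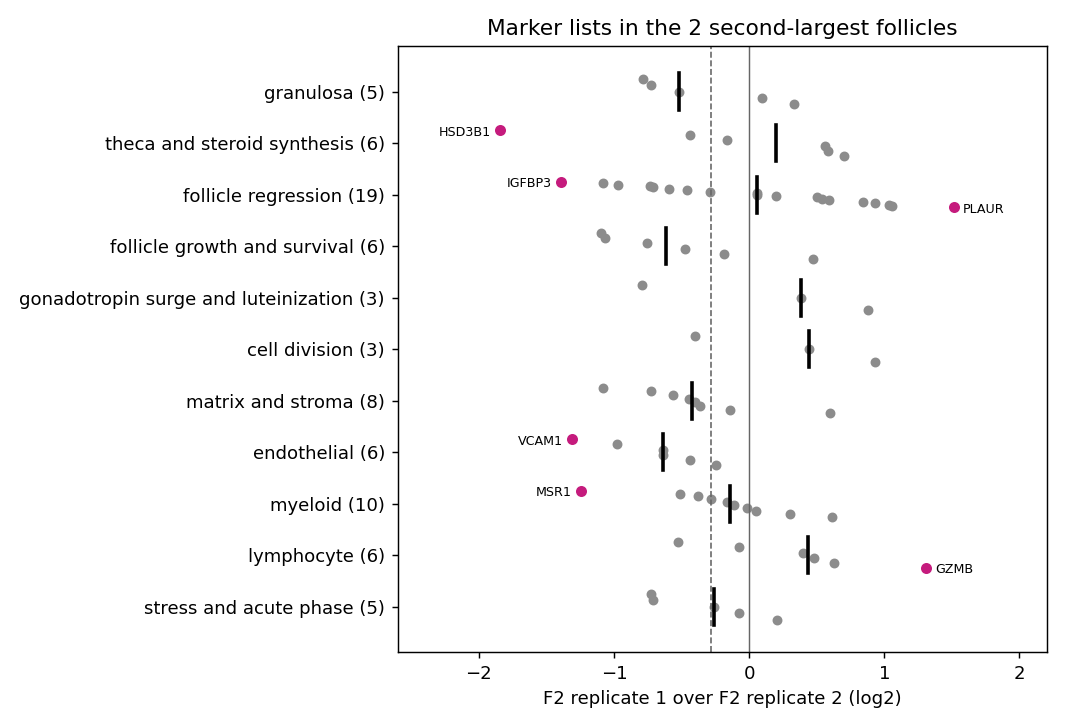
Log2 ratio of F2 replicate 1 over F2 replicate 2 (x axis) of each measured gene of the marker lists with at least 3 measured genes (y axis, number measured in parentheses). Thick bars are list medians, named coloured points belong to the 60 genes, the solid line marks equality and the dashed line the median of all named probes at -0.28. On this GAPDH scale the endothelial list lies wholly left of 0, and the regression list spans from IGFBP3 on the left to PLAUR on the right.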

How the data were processed

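Labelled RNA of 5 follicles was hybridized to one-color arrays of 60-base probes. Per the file headers, the authors extracted the spots with Feature Extraction 9.5.3.1, whose deposited files hold background-subtracted processed intensity, raw mean and background intensity, and flags. The authors also deposited a table of each signal as a ratio to the GAPDH median of its array, which the processed intensities matched within 0.0005. No count-based depth exists, and the number of arrays limits the precision. Names came from RefSeq (ARS-UCD2.0), which matched 1364 of 1415 accessions and all 60 genes.

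The genes and marker lists were chosen with earlier results of these data known. Values in every follicle are given for the 10 genes with the highest ratio in each direction, those called, those on a marker list and those at the limit. Others were named as examples of a hand-assigned function group after their values were seen. For limma 3.58.1 (R 4.3.3), values below 0.001 were raised to 0.001, log2 was taken, and probes detected on all arrays of F1 or of F2 were fitted with lmFit and eBayes, with Benjamini-Hochberg adjustment at 0.05 and no block. By the methods, follicles of a group came from different cows. Some measured items are not reported here. Alternatives were the 75th percentile, quantile normalization, normexp with offset 50, the deposited ratios, other filters and floors, an intensity trend, a replicate block and leaving out each follicle.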

Additional observations from a re-analysis of the deposited data

How the results depend on the processing

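Of the 60 chosen under other settings, those higher in F2 replicate 1 numbered 33 for the 75th percentile, 37 for quantile normalization, 2 where detection on all 5 arrays was required and 6 over all non-control probes. The genes shared with the 60 numbered 37 for the 75th percentile, 33 for quantile normalization, 38 for normexp and 38 where both F2 signals had to reach 3 times the lowest detected. The causes were not tested, except that the filter on all 5 arrays removes genes absent from the F1 by construction. The ratio of the last gene was between 1.88 and 2.29 in every setting that recomputed it. Both F2 above every F1 was found in 10 genes with normexp and in 1 of 36 measured with the deposited ratios, which hold no value for weak spots. limma called 12 of the 60, 21 with normexp, 20 with a floor of 0.01, 2 without a filter, and 4 to 12 with 1 follicle left out. Over all probes it called 634, 214 without a filter, and 160 to 550 with 1 follicle left out. Calls over all probes also rose with normexp, to 743, and with a floor of 0.01, to 888, so the rise was not limited to the 60. Without a filter PLAUR and MSR1 kept their calls, and with normexp PCSK1, MSR1 and LOC280930 lost theirs. The 12 called genes kept their direction in every setting that measured them. Replicate numbers were not known to pair follicles (correlations of 0.039 and 0.13 between the same numbers), and with a replicate block 14 of the 60 and 578 probes in all were called, with DMAC2L (adjusted p = 0.0830) and LOC338050 (0.0509) lost. Weak signals set the limit: 15 of the 60 had a lower F2 signal under 2 times the lowest detected.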

Other observations

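Probes outside the named transcripts also differed between the 2 F2. Of 5233 non-control probes that passed the same filter, 346 (6.61%) had a ratio at or over that of the last of the 60 genes, against 7.28% of the named probes, and 27 of them were higher in F2 replicate 1 and 319 in F2 replicate 2 on the GAPDH scale. The highest ratio belonged to the transcript BP110819, with 1.36 in F2 replicate 1, 29.1 in F2 replicate 2 and 48.1, 37.3 and 23.3 in the F1. BP111150 was 1.67 and 27.1 in the F2 and 36.8, 31.2 and 19.2 in the F1. For both transcripts F2 replicate 2 lay at the level of the F1 and F2 replicate 1 far under it. In the other direction BE722438 was 0.237 and 0.0485 in the F2 and BP103358 was 0.129 and 0.0295. The tables used here pair none of these accessions with a gene.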
